A study of Mus musculus with 2 samples.

Results

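The genes described here encode the proteins of the mitochondrial ribosome, in mouse embryonic fibroblasts (MEFs) of 2 reciprocal genotypes, MatDup.dist7 and PatDup.dist7. They were chosen by symbol: every probe set with a single gene symbol made of Mrpl or Mrps, a number and at most 1 letter. This gave 85 probe sets for 77 genes, of 21789 single-symbol probe sets for 19938 genes on the array. Symbols of the Mrpl kind gave 48 genes of the large subunit and symbols of the Mrps kind 29 genes of the small subunit. The reference gene table held 78 such genes. The one without a value was Mrpl53, whose probe set carried a second symbol and was not used.

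MatDup.dist7 cells carry both copies of distal chromosome 7 from the mother, and PatDup.dist7 cells carry both from the father, so the dose of the segment is equal and its parental origin is not. Both cultures were MEFs taken at 13.5 days post coitum and grown in the same serum-containing medium, per the labels. Total RNA of each was labelled by a whole-transcript protocol and hybridised to 1 array, so each genotype is 1 sample with no replicate. The sources used here do not name the breakpoint of the segment, the passage or the number of embryos behind each culture. In such bulk samples, fewer cells of a type and less RNA per cell cannot be told apart. Precision is limited by the number of arrays. No difference was tested against the spread between cultures.

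The mitochondrial ribosome translates the few messenger RNAs made from mitochondrial DNA, all of which encode core subunits of the respiratory chain and ATP synthase. Its RNAs come from mitochondrial DNA, whereas every protein of it is encoded in the nucleus, made in the cytoplasm and imported. Some of these proteins descend from the bacterial ribosome and others were added in the mitochondrial lineage, so the organelle's ribosome is richer in protein than a bacterial one. The large subunit forms peptide bonds and holds the exit tunnel, and the small subunit binds the messenger RNA and decodes it.

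Values are intensities on a linear scale. Each difference subtracts PatDup.dist7 from MatDup.dist7 on log2(intensity + 16), a scale that understates differences of dim probe sets. The median intensity of all probe sets was 68.6 for MatDup.dist7 against 64.2 for PatDup.dist7. Fibroblast markers ranged widely in signal, with Vim at 11913 and 11542 and Col1a1 at 7565 and 9870 in MatDup.dist7 and PatDup.dist7. At the low end, Pdgfra had 99.7 and 72.9 and Lum had 51.7 and 52.7 in MatDup.dist7 and PatDup.dist7. Of 12 fibroblast markers 9 were lower in MatDup.dist7 (summed intensity 42245 in MatDup.dist7 against 48456 in PatDup.dist7), and the one farthest apart was S100a4, at 246 in MatDup.dist7 against 130 in PatDup.dist7 (0.84). Y-linked Eif2s3y stood at 112 in MatDup.dist7 against 6.44 in PatDup.dist7, Uty at 77.9 and 2.61, Kdm5d at 122 and 22.9, and X-linked Xist at 0.00166 and 91.2, so sex and genotype cannot be told apart. Of 24 measured cell cycle genes, 17 were higher in MatDup.dist7 (median difference 0.41, summed intensity 5566 in MatDup.dist7 against 4407 in PatDup.dist7), and Plk1, a mitotic kinase gene, had 427 in MatDup.dist7 against 237 in PatDup.dist7 (0.81). Of 8 macrophage markers, 6 were lower in MatDup.dist7 (summed intensity 3748 in MatDup.dist7 against 4670 in PatDup.dist7), and none of them was at 0. Mrc1, the mannose receptor gene, had 31.7 in MatDup.dist7 against 103 in PatDup.dist7 (-1.32). Adgre1 went the other way, at 548 in MatDup.dist7 against 273 in PatDup.dist7 (0.96), as did Csf1r, at 855 and 746 (0.19). The median intensity of the 8 macrophage markers was 393 in MatDup.dist7 against 299 in PatDup.dist7, opposite to the sums. Of 5 endothelial markers 4 were lower in MatDup.dist7 (sums of 249 and 319), and of 7 epithelial markers 6 were higher (sums of 836 and 577). Of these, Kdr had 32.1 in MatDup.dist7 against 65.1 in PatDup.dist7 (-0.75). Krt5 had a difference of 1.16, with an intensity of no more than 23.2 on either array. Both genes lay under the signal filter described below, which 1 of the 5 endothelial and 5 of the 7 epithelial markers passed. Cdh5, the endothelial marker that went the other way, had 36.3 in MatDup.dist7 against 20.8 in PatDup.dist7 (0.51), also under the filter. Of 5 skeletal muscle markers 4 were lower (sums of 1007 and 1057), with Myod1 at 139 in MatDup.dist7 against 171 in PatDup.dist7 (-0.27), and both measured erythroid markers were higher, with Alas2 at 40.8 and 32.5 (0.23). The part of these differences in the results below was not tested.

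Mitochondrial ribosomal protein genes were mostly lower in MatDup.dist7 than in PatDup.dist7, by small amounts, and more of the large subunit genes than of the small subunit genes were lower. Of the 77 genes, 52 (67.5%) had a negative difference, against 48.6% of all 19938 genes, and 25 had a positive one, against 51.4% of all genes. The median difference of the 77 was -0.22 (quartiles -0.49 and 0.08), against 0.02 for all genes. A gene at the median difference had a MatDup.dist7 value, pseudocount included, of 0.856 times its PatDup.dist7 value. In the large subunit 38 of 48 genes (79.2%) were lower in MatDup.dist7, with a median of -0.29. In the small subunit 14 of 29 (48.3%) were lower, with a median of 0.0040. The means were -0.24 for the large subunit and -0.09 for the small subunit, and the difference between the subunits was not tested. The medians of the subunits differed by -0.29 (large minus small), a description of 2 arrays in which genes are not replicates.

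The share of the genes within 1.5-fold was near that of all genes. At least 1.5-fold higher in MatDup.dist7 were 4 of 77 (5.19%), against 15.5% of all genes. At least 1.5-fold higher in PatDup.dist7 were 14 of 77 (18.2%), against 12.5% of all genes. With each array centred on its median these counts were 2 and 17, against 13.3% and 14.9% of all genes. With a pseudocount of 64 they were 1 and 3, against 4.1% and 3.72% of all genes. Past 2-fold, none lay towards MatDup.dist7, against 4.47% of all genes, and 1, Mrpl33, lay towards PatDup.dist7, against 3.16% of all genes. The other 59 (76.6%) lay within 1.5-fold, compared with 72.1% of all genes. Above the signal filter described below, 78.6% of 70 members and 76.9% of 12769 genes did so. Across the 77 genes the log2 levels of the arrays correlated with r = 0.932 (0.936 across all genes), genes of 1 pair of arrays not being independent points.

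**Figure D1:**
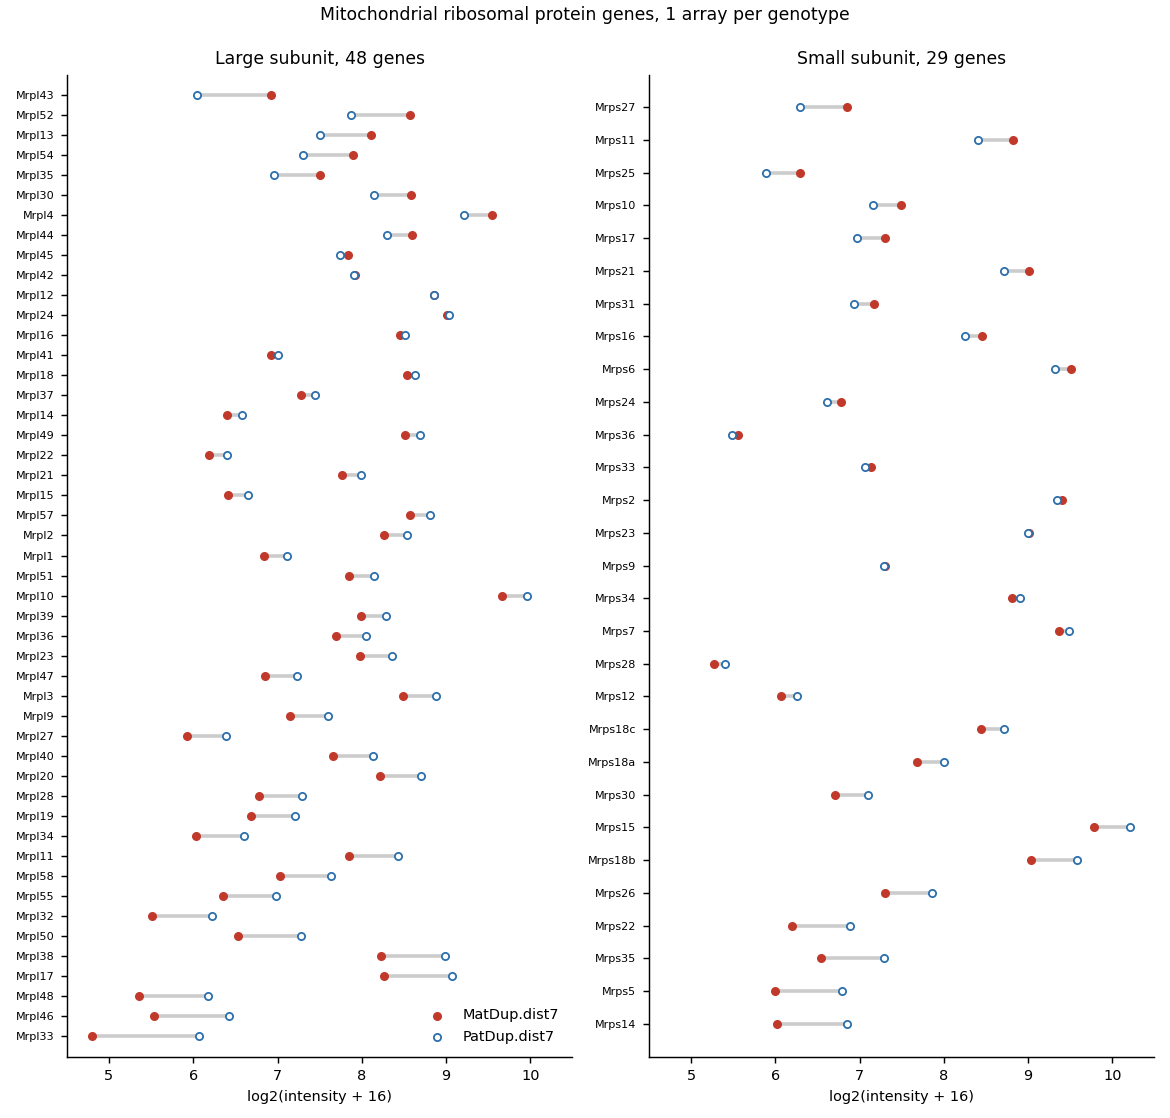
Level of each of the 77 genes on the MatDup.dist7 array (filled points) and the PatDup.dist7 array (open points), as log2(intensity + 16), genes in order of their difference with those highest in MatDup.dist7 at the top. Levels of different genes come from different probe sets and have no common scale. In the large subunit 38 of 48 filled points lie left of the open ones, and in the small subunit 14 of 29.

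Bright genes of any kind were more often lower in MatDup.dist7 (59.8% of those with a mean intensity of 256 and over). In this class the 30 members had a median difference of -0.11 and all 4485 genes one of -0.09. Within it the medians were -0.24 for 19 large subunit genes, of which 15 were lower in MatDup.dist7, and 0.01 for 11 small subunit genes, of which 5 were lower. Between 64 and 256, the 38 members had a median of -0.29 and all 7412 genes one of 0.05. Here 24 large subunit genes had a median of -0.29 and 14 small subunit genes one of -0.16, and the means of both subunits were -0.19. Under 64 the medians were -0.22 for 9 members and 0.10 for 8041 genes, with -0.82 for the 5 large subunit genes and -0.03 for the 4 small subunit genes. A signal filter at the median of all probe set values, 66.4, left 70 of the 77 members. Mrpl32, Mrpl33, Mrpl48, Mrps12, Mrps25, Mrps28 and Mrps36 lay under it.

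**Figure D2:**
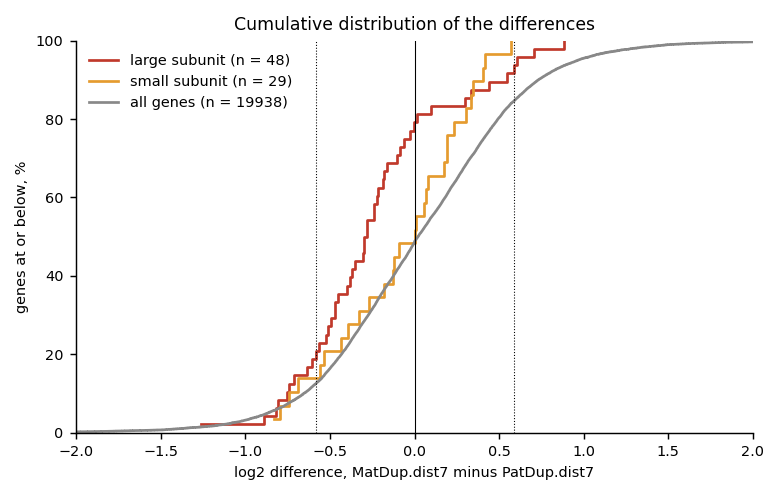
Cumulative share of genes by log2 difference (MatDup.dist7 minus PatDup.dist7) for 48 large subunit genes, 29 small subunit genes and all 19938 genes, with dotted lines at 1.5-fold and the x axis cut at -2 and 2. The large subunit curve lies left of the other curves over most of its middle range, with medians of -0.29 for the large subunit, 0.0040 for the small subunit and 0.02 for all genes.

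Proteins of the stalk, which recruits the translation factors to the large subunit, were represented by 3 genes. Mrpl12, whose protein forms the mobile part of the stalk, had an intensity of 448 in MatDup.dist7 against 449 in PatDup.dist7 (difference -0.0025 on the log2 scale), the smallest difference in size of all 77 genes. Mrpl10, which anchors the stalk, had 795 in MatDup.dist7 against 983 in PatDup.dist7 (-0.30). Mrpl11, at the stalk base, had 215 in MatDup.dist7 against 330 in PatDup.dist7 (-0.59), just past 1.5-fold. None of the 3 was higher in MatDup.dist7.

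At the polypeptide exit site, where the new chain leaves the ribosome towards the inner membrane, 5 of 6 genes were lower in MatDup.dist7 (median -0.29). Mrpl17 had 291 in MatDup.dist7 against 521 in PatDup.dist7 (-0.80). Mrpl22 had 56.7 and 68.4 (-0.22) and Mrpl24 had 500 and 509 (-0.03) in MatDup.dist7 and PatDup.dist7. The arrays differed least for Mrpl24 among these genes. Mrpl45, whose protein ties the ribosome to the inner membrane, was the exception, at 212 in MatDup.dist7 against 197 in PatDup.dist7 (0.10). Mrpl23 and Mrpl47 had 2 probe sets each and averaged -0.37 and -0.38.

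The central protuberance, the crown of the large subunit that faces the small one, held the widest range of these 3 structures. Mrpl46 had 30.2 in MatDup.dist7 against 69.7 in PatDup.dist7 (-0.89). Mrpl48 had 24.9 in MatDup.dist7 against 56.2 in PatDup.dist7 (-0.82), and Mrpl38 had 285 and 490 (-0.75). Mrpl40 (187 in MatDup.dist7 against 264 in PatDup.dist7, -0.47) and Mrpl18 (354 and 382, -0.11) went the same way. Mrpl52 stood opposite to the other 5, at 366 in MatDup.dist7 against 218 in PatDup.dist7 (0.71). The median of the 6 was -0.61. Of the genes past 1.5-fold, Mrpl17, Mrpl33, Mrpl38 and Mrpl52 stayed past it under every alternative that kept them.

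Large subunit proteins with a bacterial counterpart were lower in MatDup.dist7 in 26 of 30 genes, with a median of -0.33. Mrpl33 had the largest difference of all 77 genes, at 11.9 in MatDup.dist7 against 50.9 in PatDup.dist7 (-1.26, or -2.01 with a pseudocount of 1 and -0.60 with one of 64). Both of its values lay under the median signal of the array. Mrpl32, whose protein is matured by an inner membrane protease before it joins the ribosome in yeast and mouse, had 29.6 in MatDup.dist7 against 58.6 in PatDup.dist7 (-0.71). Mrpl55 had 65.6 and 111 (-0.63), Mrpl34 had 49.4 and 80.9 (-0.57), and Mrpl19 had 86.9 and 132 (-0.52) in MatDup.dist7 and PatDup.dist7. Mrpl32 and Mrpl34 were under 64 in MatDup.dist7.

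Among other conserved genes, Mrpl3, mutated in human mitochondrial cardiomyopathy, had 343 in MatDup.dist7 against 457 in PatDup.dist7 (-0.40). Mrpl20 had 281 and 402 (-0.49), Mrpl28 had 93.6 and 140 (-0.51) and Mrpl9 had 126 and 178 (-0.45) in MatDup.dist7 and PatDup.dist7. Mrpl27 averaged -0.47 over its 2 probe sets. Mrpl1, Mrpl2, Mrpl14, Mrpl15, Mrpl16, Mrpl21 and Mrpl36, had differences between -0.35 and -0.06. Only Mrpl4, Mrpl13, Mrpl30 and Mrpl35 of the conserved large subunit genes were higher in MatDup.dist7. Mrpl13 had 260 in MatDup.dist7 against 165 in PatDup.dist7 (0.61). For Mrpl35 the values were 165 in MatDup.dist7 against 108 in PatDup.dist7 (0.54). Mrpl30 had 368 and 267 (0.44) and Mrpl4 had 734 and 579 (0.33) in MatDup.dist7 and PatDup.dist7.

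Large subunit proteins without a bacterial counterpart had a larger standard deviation of differences (0.53, against 0.40 for those with one): 12 of 18 were lower in MatDup.dist7, with a median of -0.21, against 0.02 for all genes. Past 1.5-fold, 3 (16.7%) lay towards MatDup.dist7, against 15.5% of all genes, and 5 (27.8%) towards PatDup.dist7, against 12.5%. The largest excess in MatDup.dist7 of all 77 genes was that of Mrpl43, at 105 in MatDup.dist7 against 49.8 in PatDup.dist7 (0.88). Mrpl54 had 222 in MatDup.dist7 against 142 in PatDup.dist7 (0.59), within 1.5-fold under 3 of the alternatives. Towards PatDup.dist7, Mrpl50 had 76.3 in MatDup.dist7 against 139 in PatDup.dist7 (-0.74). Mrpl58, a peptidyl-tRNA hydrolase that frees stalled ribosomes and is also a built-in ribosomal protein, had 115 in MatDup.dist7 against 183 in PatDup.dist7 (-0.61). Mrpl44, which has an RNase III-like fold, had 372 in MatDup.dist7 against 299 in PatDup.dist7 (0.30). Mrpl37, Mrpl39, Mrpl42, Mrpl49 and Mrpl57 lay between -0.30 and 0.01.

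Promoters of 2 large subunit genes are shown, as the windows from 250 bases before to 50 after the annotated start, from RefSeq. Mrpl43 has the largest excess in MatDup.dist7 of all 77 genes. Mrpl17 was picked by another rule, as the gene with the largest excess in PatDup.dist7 among members with a mean intensity of 256 and over. Capitals mark CCGGAAG, the core bound by ETS factors such as GABPA, the NRF1 palindrome (GCGCA, any base, then GCGC), and AAGATGGC, the YY1 motif, on either strand. Mrpl17 holds 1 ETS core and 1 NRF1 palindrome, and Mrpl43 holds 2 ETS cores.
Mrpl17 promoter, GRCm38.p6, chr7:105811038-105811337, minus strand: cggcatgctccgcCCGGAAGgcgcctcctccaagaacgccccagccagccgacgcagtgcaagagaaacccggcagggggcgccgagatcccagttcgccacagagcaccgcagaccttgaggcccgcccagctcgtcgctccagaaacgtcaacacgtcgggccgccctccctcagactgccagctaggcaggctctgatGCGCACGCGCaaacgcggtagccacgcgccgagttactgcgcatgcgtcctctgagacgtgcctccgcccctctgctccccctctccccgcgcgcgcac
Mrpl43 promoter, GRCm38.p6, chr19:45006393-45006692, minus strand: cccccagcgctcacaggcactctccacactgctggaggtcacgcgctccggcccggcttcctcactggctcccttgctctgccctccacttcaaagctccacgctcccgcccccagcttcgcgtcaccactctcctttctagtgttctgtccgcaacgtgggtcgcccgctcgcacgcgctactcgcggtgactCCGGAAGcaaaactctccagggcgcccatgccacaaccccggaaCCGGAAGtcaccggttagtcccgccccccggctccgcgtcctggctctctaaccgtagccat

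Small subunit genes had no common direction. None was past 1.5-fold towards MatDup.dist7, against 15.5% of all genes. The 4 past it towards PatDup.dist7 (13.8%) were close to the share of all genes, 12.5%. Mrps14 had 49.1 in MatDup.dist7 against 99.9 in PatDup.dist7 (-0.83). Mrps35 had 77.5 in MatDup.dist7 against 140 in PatDup.dist7 (-0.74). Mrps22, mutated in human respiratory chain deficiency, had 57.2 in MatDup.dist7 against 102 in PatDup.dist7 (-0.69). The fourth was Mrps5, whose 2 probe sets are given below. In MatDup.dist7 all 4 had a mean intensity of 77.5 or less, and with a pseudocount of 64 each was within 1.5-fold.

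Several bright small subunit genes differed little. Mrps7, of the small subunit head, had 643 in MatDup.dist7 against 701 in PatDup.dist7 (-0.12). Mrps2 had 662 and 635 (0.06), Mrps23 had 499 and 497 (0.01) and Mrps34 had 434 and 463 (-0.09) in MatDup.dist7 and PatDup.dist7. Mrps9 gave 141 on both arrays (0.0040). Mrps15 was lower, at 862 in MatDup.dist7 against 1173 in PatDup.dist7 (-0.44), and Mrps26 had 142 and 217 (-0.56). Mrps12, whose bacterial counterpart is the site of streptomycin resistance mutations in the decoding centre, had 51.3 in MatDup.dist7 against 60.2 in PatDup.dist7 (-0.18). Mrps28 had 22.8 and 26.4 (-0.13) in MatDup.dist7 and PatDup.dist7, both low.

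On the other side, Mrps27, a pentatricopeptide repeat protein, had 99.8 in MatDup.dist7 against 62.2 in PatDup.dist7 (0.57). Mrps11 had 435 in MatDup.dist7 against 322 in PatDup.dist7 (0.41), and Mrps25 had 62.2 and 43.0 (0.40). Mrps10, Mrps17 and Mrps21 had differences of 0.34, 0.33 and 0.30. Mrps6, Mrps16, Mrps24 and Mrps31 had differences between 0.17 and 0.23. Genes with a bacterial counterpart were split 9 to 9 by direction (median -0.06) and those without one 5 lower to 6 higher in MatDup.dist7 (median 0.01).

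The Mrps18 family, 3 paralogs of 1 bacterial protein, went one way. Mrps18b had 511 in MatDup.dist7 against 748 in PatDup.dist7 (-0.54). Mrps18a had 189 in MatDup.dist7 against 241 in PatDup.dist7 (-0.33), and Mrps18c had 331 and 403 (-0.27). None of the 3 reached 1.5-fold. Symbols do not always match the place of a protein: structures of the mammalian ribosome put Mrps18a and Mrps30 in the large subunit, and Mrps36 is now known as a subunit of the 2-oxoglutarate dehydrogenase complex. Mrps30 had 88.3 in MatDup.dist7 against 121 in PatDup.dist7 (-0.39), so both relocated genes were lower in MatDup.dist7. With these genes moved and Mrps36 left out, the median was -0.30 for 50 large subunit genes and 0.01 for 26 small subunit genes.

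The duplicated segment lies on chromosome 7, which carries 6 of the 77 genes. None is on X or Y, and the others are spread over 16 further chromosomes. In order along chromosome 7 they are Mrps12, Mrpl46, Mrps11, Mrpl48, Mrpl17 and Mrpl23, at places 412, 822, 823, 1019, 1203 and 1694 of 1734 measured genes. Mrps11 was higher in MatDup.dist7 and the other 5 were lower, with a median of -0.59 over the 6. This median rests in part on probe sets numbered among those of other chromosomes, a check described below. The only probe set of Mrpl48 (-0.82) is numbered among those of chromosome 4. For Mrpl23, 1 probe set (-0.62) is numbered among those of chromosome 2, and the other had -0.13. Without the chromosome 7 genes the median of the remaining 71 genes was -0.22. Of these 71, 11 (15.5%) were past 1.5-fold towards PatDup.dist7, against 12.5% of all genes.

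Mrpl23 is the distal one, next to Igf2, the paternally expressed growth factor gene, in the order of measured genes. The probe set numbered with its own chromosome had 290 in MatDup.dist7 against 318 in PatDup.dist7 (-0.13), and the other had 193 and 305 (-0.62). Igf2 had 7.48 in MatDup.dist7 against 1013 in PatDup.dist7 (-5.45). Further distal, Th had 75.6 in MatDup.dist7 against 2.72 in PatDup.dist7 (2.29), and the maternally expressed Cdkn1c had 1109 in MatDup.dist7 against 0.0132 in PatDup.dist7. On its other side Tnnt3, a fast muscle troponin gene, had 261 in MatDup.dist7 against 189 in PatDup.dist7 (0.43). Lsp1, a leukocyte actin-binding protein gene a few places further, had 488 and 633 (-0.36). The mean difference of Mrpl23, -0.37, was close to the large subunit median of -0.29. The promoter window of Mrpl23, shown for its place next to Igf2 in the order of measured genes, holds none of the 3 motifs and so has no capitals.
Mrpl23 promoter, GRCm38.p6, chr7:142532782-142533081, plus strand: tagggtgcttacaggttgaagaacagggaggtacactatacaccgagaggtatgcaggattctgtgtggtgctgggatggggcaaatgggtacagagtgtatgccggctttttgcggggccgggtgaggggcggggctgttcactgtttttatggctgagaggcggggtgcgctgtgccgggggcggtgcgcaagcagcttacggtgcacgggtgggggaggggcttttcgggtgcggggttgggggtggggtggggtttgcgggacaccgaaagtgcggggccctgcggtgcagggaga

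Mrpl46 and Mrps11 are the other pair of neighbours on this chromosome, with starts 42 bases apart and transcription in opposite directions. Their differences had opposite signs, -0.89 for Mrpl46 (30.2 in MatDup.dist7 against 69.7 in PatDup.dist7) and 0.41 for Mrps11 (435 and 322). The windows of the 2 genes, which overlap, are shown because 1 stretch of DNA lies before both. The Mrps11 window holds the YY1 letters once, and the Mrpl46 window holds none of the 3 motifs.
Mrpl46 promoter, GRCm38.p6, chr7:78783040-78783339, minus strand: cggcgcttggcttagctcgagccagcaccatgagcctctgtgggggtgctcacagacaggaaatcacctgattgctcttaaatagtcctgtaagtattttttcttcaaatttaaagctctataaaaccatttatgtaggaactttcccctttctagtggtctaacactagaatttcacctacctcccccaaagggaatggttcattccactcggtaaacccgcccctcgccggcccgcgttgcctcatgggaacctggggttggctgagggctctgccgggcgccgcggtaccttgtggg
Mrps11 promoter, GRCm38.p6, chr7:78782881-78783180, plus strand: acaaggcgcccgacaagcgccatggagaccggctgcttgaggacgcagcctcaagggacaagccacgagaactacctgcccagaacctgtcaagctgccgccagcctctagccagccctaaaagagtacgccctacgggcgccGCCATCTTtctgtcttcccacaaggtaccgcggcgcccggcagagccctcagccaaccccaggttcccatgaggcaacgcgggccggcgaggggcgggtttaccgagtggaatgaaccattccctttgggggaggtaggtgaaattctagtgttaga

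Divergent starts of this kind were common among the genes. By the RefSeq starts of GRCm38.p6, 23 of 68 members with an entry (33.8%) had a gene starting within 500 bases in the opposite direction, compared with 2053 of 17492 protein-coding genes (11.7%). Both genes were measured in 20 such pairs, and 8 of these (40%) had differences of the same sign, compared with 349 of 668 such pairs over all genes (52.2%). The 19 partners that are no mitochondrial ribosomal protein genes had a median of 0.17, against 0.02 for all genes. Of them 12 (63.2%) were higher in MatDup.dist7, against 51.4% of all genes.

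Some partners work in the same organelle. Mrps12 is paired with Sars2, the mitochondrial seryl-tRNA synthetase gene, which had 163 in MatDup.dist7 against 217 in PatDup.dist7 (-0.38), the same sign as Mrps12. Mrps27 is paired with Ptcd2, a mitochondrial RNA-processing gene, at 176 in MatDup.dist7 against 119 in PatDup.dist7 (0.50), also of the same sign. Mrpl43 is paired with Twnk, the mitochondrial DNA helicase gene, which had 112 and 101 (0.13) in MatDup.dist7 and PatDup.dist7. Mrpl47 (-0.38) is paired with Ndufb5, a respiratory complex I gene, at 340 and 276 (0.28), so here the signs were opposite. Other partners have no mitochondrial role. Mrpl32 shares its start region with the proteasome gene Psma2 (713 in MatDup.dist7 against 631 in PatDup.dist7, 0.17). Mrpl18 shares its own with Tcp1, a chaperonin gene (1917 and 1407, 0.44).

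**Figure D3:**
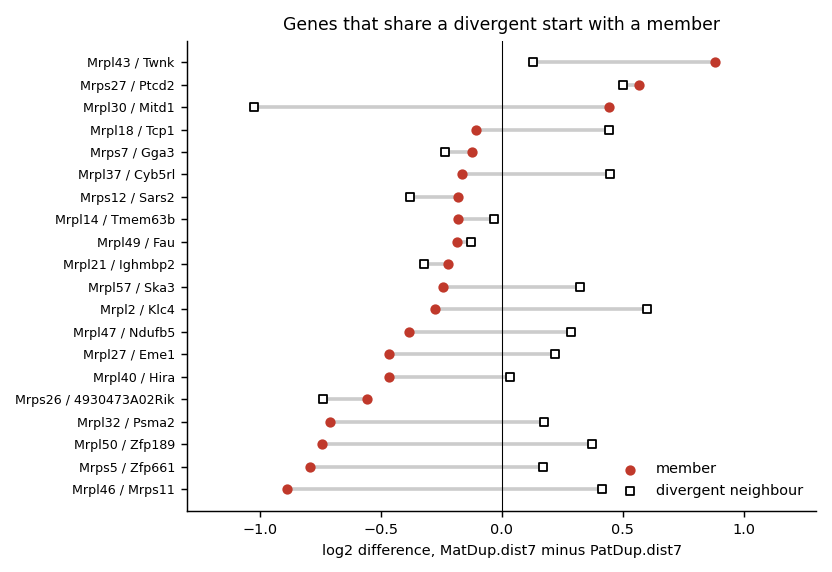
Log2 difference (MatDup.dist7 minus PatDup.dist7) of 20 members (filled circles) and of the gene that starts within 500 bases in the opposite direction (open squares), pairs in order of the member's difference. Mrpl46 and Mrps11 are both members. The signs agree in 8 of 20 pairs, and the squares do not follow the order of the circles.

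Promoter letters were counted over all listed windows. Of 74 windows of 68 members, 25 (33.8%) held the ETS core CCGGAAG, compared with 11.6% of 21263 windows of protein-coding genes and 8.86% of all 32851 windows. The NRF1 palindrome was in 17.6% of the members' windows, compared with 6.38% of those of protein-coding genes, and the YY1 letters in 16.2%, compared with 3.05%. GGGCGG, the Sp1 box, was in 52.7% and 46.2%, and TATAAA in 6.76% and 12.6%. The NRF1 and ETS letters were also frequent in windows of respiratory chain and ATP synthase genes (25.4% and 23.9%). Members at least 1.5-fold higher in PatDup.dist7 had 15 windows of 12 genes, more than 1 of them from Mrpl48, and the other members 59 windows of 56 genes. By window, the ETS core was in 33.3% of the former and 33.9% of the latter. The NRF1 palindrome was in 13.3% and 18.6%, the YY1 letters in 6.67% and 18.6%, and the Sp1 box in 66.7% and 49.2%. Windows of 1 gene are not independent, and these splits were not tested. A match describes the letters of the window and does not show a bound factor.

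For 8 of the 77 genes there were 2 probe sets, and these bound the agreement within an array. Mrps5 had 29.8 in MatDup.dist7 against 77.4 in PatDup.dist7 on 1 probe set (-1.03). The other probe set had 72.6 in MatDup.dist7 against 115 in PatDup.dist7 (-0.56). Mrpl47 gave -0.61 (54.3 in MatDup.dist7 against 91.5 in PatDup.dist7) and -0.15 (173 and 194). In both genes the probe sets kept 1 direction. The standard deviation of the log2 difference around the mean of its gene, pooled over genes, was 0.55 over these 16 probe sets. It was 0.40 over 1722 probe sets above the signal filter. The filter was not applied to the 16, and some of them are numbered among those of another chromosome, as described below.

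Probe sets of this array are numbered along the chromosomes, which allows a check of where they lie. Of 21698 single-symbol probe sets with a known chromosome, 3.18% are numbered among probe sets of another chromosome (the most frequent chromosome of the 10 nearest on each side). Of the members' 85 probe sets 7 (8.24%) are. Mrps36 had 59.5 in MatDup.dist7 against 24.1 in PatDup.dist7 (0.91) on the probe set numbered with its own chromosome. Its second probe set had 13.4 in MatDup.dist7 against 33.7 in PatDup.dist7 (-0.76). Mrpl41 had 58.5 in MatDup.dist7 against 90.4 in PatDup.dist7 (-0.51) on its own chromosome's probe set and 180 and 139 (0.34) on the other. For these 2 genes the mean over probe sets, 0.08 and -0.09, hides opposite values.

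Mrpl51 had 173 in MatDup.dist7 against 175 in PatDup.dist7 (-0.01) on the probe set of its own chromosome and 266 and 406 (-0.58) on the other. Mrpl27 had 20.7 and 26.7 (-0.22) on its own and 84.6 and 149 (-0.71) on the other. Mrps33 differed little on either (0.15 and -0.0083). Mrpl48 is measured by such a probe set alone. Without the 7 probe sets the medians were -0.24 for 47 large subunit genes and 0.0040 for 29 small subunit genes.

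**Figure D4:**
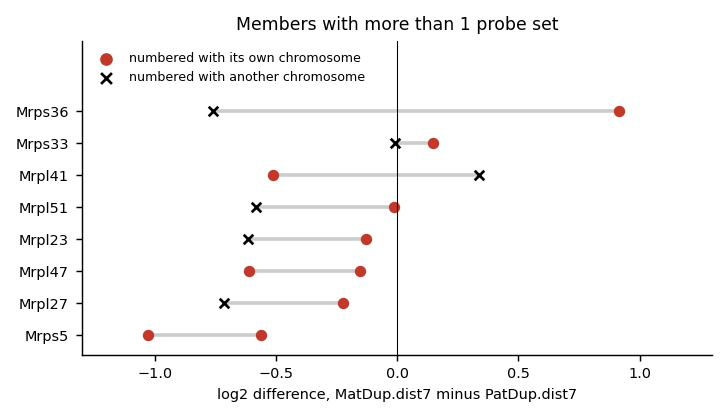
Log2 difference (MatDup.dist7 minus PatDup.dist7) of each probe set of the 8 members that have 2, with circles for probe sets numbered among those of the gene's own chromosome and crosses for the others. Mrps36 and Mrpl41 have probe sets on opposite sides of 0, at 0.91 and -0.76 and at -0.51 and 0.34, as has Mrps33, at 0.15 and -0.0083.

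Proteins of the mitochondrial ribosome with other names were compared with the Mrpl and Mrps genes. Dap3, a GTP-binding small subunit protein, had 243 in MatDup.dist7 against 249 in PatDup.dist7 (-0.03). Ptcd3, a pentatricopeptide protein at the messenger RNA entrance, had 157 in MatDup.dist7 against 167 in PatDup.dist7 (-0.08). Chchd1 had 32.5 in MatDup.dist7 against 53.9 in PatDup.dist7 (-0.53), and Gadd45gip1, of the large subunit, had 140 and 115 (0.25). None reached 1.5-fold, and their median was -0.06.

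The machinery around the ribosome had medians nearer to 0 than the large subunit. Of 13 translation factor genes, 10 were lower in MatDup.dist7 (median -0.12). Past 1.5-fold lay 1 of them (7.69%) in each direction, against 15.5% of all genes towards MatDup.dist7 and 12.5% towards PatDup.dist7. Guf1, the mitochondrial counterpart of the bacterial elongation factor LepA, had 36.5 in MatDup.dist7 against 67.3 in PatDup.dist7 (-0.67). Tsfm, the exchange factor of the elongation factor Tufm, had 139 in MatDup.dist7 against 84.9 in PatDup.dist7 (0.62), while Tufm had 629 and 738 (-0.20). Of 19 mitochondrial aminoacyl-tRNA synthetase and amidotransferase genes 11 were lower in MatDup.dist7 (median -0.13). Nars2, the asparaginyl-tRNA synthetase gene, on chromosome 7, had 34.3 in MatDup.dist7 against 101 in PatDup.dist7 (-1.22). It was the one gene of that list past 2-fold (5.26%), against 3.16% of all genes past it towards PatDup.dist7.

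Of 24 ribosome assembly genes 16 were lower in MatDup.dist7 (median -0.14). Mrm3, a methyltransferase of the large ribosomal RNA, had 147 in MatDup.dist7 against 64.6 in PatDup.dist7 (1.02), and Mtg1, an assembly GTPase, had 60.8 and 22.9 (0.98). Mrm3 and Mtg1 run against the median of their list. Mtg1 lies on chromosome 7 and was under the signal filter. Genes of mitochondrial DNA and RNA synthesis had a median of 0.09 over 17. Polg, on chromosome 7, encodes the catalytic subunit of the DNA polymerase and had 207 in MatDup.dist7 against 97.3 in PatDup.dist7 (0.97). Polrmt, the RNA polymerase gene, had 61.9 in MatDup.dist7 against 115 in PatDup.dist7 (-0.75), so the 2 polymerases differed in direction.

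Transcription regulators of mitochondrial genes had a median of -0.42 over 11, with 8 lower in MatDup.dist7. Gabpa, whose protein binds the ETS core, had 154 in MatDup.dist7 against 225 in PatDup.dist7 (-0.50), and Nrf1 had 113 and 76.6 (0.47). Ppargc1b, a coactivator of mitochondrial biogenesis, had 44.3 in MatDup.dist7 against 105 in PatDup.dist7. It was the one gene of this list past 2-fold (9.09%), against 3.16% of all genes past it towards PatDup.dist7. Myc, a growth regulator that raises ribosome synthesis, had 535 in MatDup.dist7 against 761 in PatDup.dist7 (-0.50). Whether these levels bear on the ribosomal protein genes was not tested.

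Nuclear genes of the respiratory chain and ATP synthase showed no tilt of the same size. Their median was -0.03 over 73 genes, and 40 were lower in MatDup.dist7. Past 1.5-fold lay 1 gene (1.37%) in each direction, against 15.5% of all genes towards MatDup.dist7 and 12.5% towards PatDup.dist7. Among all genes with a mean intensity of 256 and over these shares were 3.79% and 6.31%. The largest difference in the list was that of Uqcr11, of respiratory complex III, at 100 in MatDup.dist7 against 52.7 in PatDup.dist7 (0.74). Cytoplasmic ribosomal protein genes, chosen by symbol after other results were known, had a median of 0.09 over 58, and 36 were higher in MatDup.dist7. Their genes have many near-identical copies, which can share signal. The standard deviation of the differences was 0.43 over the 77 mitochondrial ribosomal protein genes, 0.26 over the respiratory genes, 0.25 over the cytoplasmic ribosomal genes and 0.58 over all genes. These lists differ in signal, with median log2 levels of 7.60, 8.47, 10.1 and 6.69 in the same order. Over all genes the standard deviation fell with signal. It was 0.69 under a mean intensity of 64, 0.54 between 64 and 256, and 0.42 at 256 and over. The 30 members at 256 and over had 0.37. The spreads of the lists are therefore not compared at like signal. No test of the difference between lists was made.

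**Figure D5:**
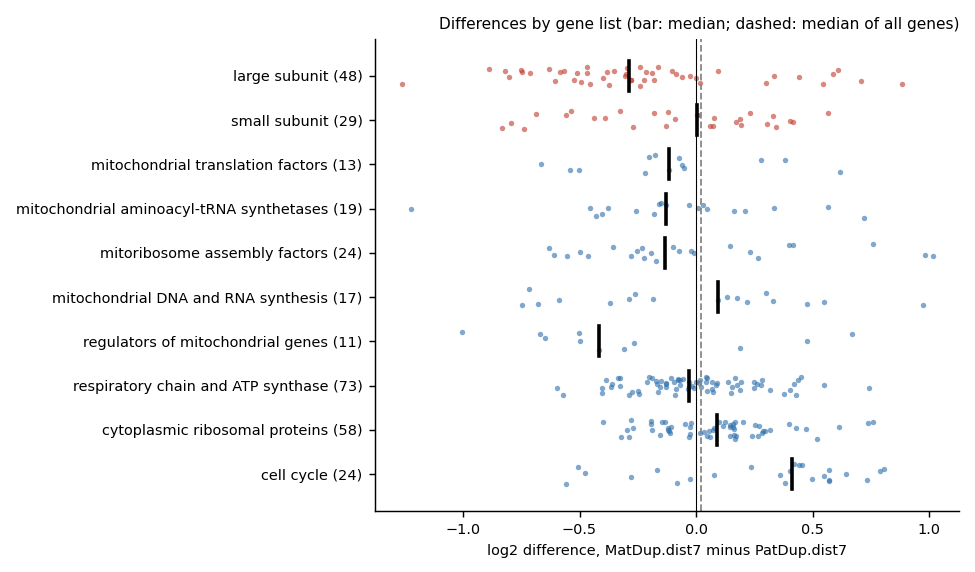
Log2 difference (MatDup.dist7 minus PatDup.dist7) of each gene in 10 lists, with the number of genes in brackets, a bar at each median and a dashed line at the median of all genes, 0.02. Large subunit genes have a median of -0.29, small subunit genes of 0.0040, respiratory chain genes of -0.03, cytoplasmic ribosomal protein genes of 0.09 and cell cycle genes of 0.41.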

How the data were processed

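Expression was measured in 2 samples, 1 array per genotype. The authors deposited linear intensities, with a single value for each probe set on each array, all above 0. Per the submitters' processing notes the authors used Affymetrix Expression Console. Background correction, summarisation, normalisation and genome build: not given in the sources used here. The centring of the deposited intensities is therefore unknown.

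Of 35557 probe sets, 21789 had 1 symbol in the platform annotation, 1621 had several and 12147 had none. Only the first kind was used, and 21698 were matched to the gene table of GRCm38.p6 by identifier. Values of log2(intensity + 16) were averaged over a gene's probe sets, giving 19938 genes (Python 3.11.15, pandas 2.3.3, numpy 2.4.6). Within a gene, printed intensities are means over its probe sets. Differences are MatDup.dist7 minus PatDup.dist7. Without replicates no test between genotypes was made, and counts used folds of 1.5 and 2 on this scale. Windows of promoters came from RefSeq.

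Members and lists were chosen with earlier results of these data known. Named genes were members at least 1.5-fold apart, the 8 with the largest difference in each direction, those on chromosome 7, those of highest and lowest signal, those with several probe sets and those of structural groups, and in other lists up to 4 genes past 2-fold or else the one farthest apart. Other genes were named after their values were seen. The calculation was tested on simulated arrays. Alternatives changed the pseudocount, floor, filter, scaling and choice of probe sets. The check of probe set numbering, the subunits by structure and the omission of chromosome 7 were added after the data were seen.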

Additional observations from a re-analysis of the deposited data

How the results depend on the processing

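Directions of the medians held for all members and for the large subunit under all 11 alternatives, 3 of them chosen after seeing the data: from -0.28 to -0.17 for all members and from -0.34 to -0.24 for the large subunit. The small subunit median stayed between -0.05 and 0.01 and so had no fixed sign. The large subunit median lay below that of the small subunit (differences from -0.31 to -0.25). Between 22 and 26 members had a positive difference. Counts past a fold depended on the pseudocount. With a pseudocount of 64, 1 member lay past 1.5-fold towards MatDup.dist7, 3 towards PatDup.dist7, and 0 past 2-fold towards PatDup.dist7. Over all 19938 genes these were 4.1%, 3.72% and 80 genes. With a pseudocount of 1, and likewise with a floor at the 25th percentile, 1 member lay past 2-fold towards MatDup.dist7 and 5 towards PatDup.dist7. Over all 19938 genes, 2183 and 1704 did so with a pseudocount of 1, and 1022 and 782 with the floor. Median centring left 2 members past 1.5-fold towards MatDup.dist7, against 13.3% of all genes. The signal filter left 0 past 2-fold towards PatDup.dist7, against 2.41% of the 12769 genes above it. The median log2 level of the members, 7.60, became 7.48 with a pseudocount of 1, 7.92 with one of 64, 7.47 with the floor, 7.86 with the filter and 0.89 after centring, as these settings change the scale or drop dim genes. Of 18 members past 1.5-fold, 4 stayed past it in every setting that kept them, and no member past 1.5-fold changed sign. Of 685 recomputed differences 6 moved by more than 0.40. These belong to Mrpl33, Mrpl41 and Mrps36. No paired analysis was possible because each genotype has 1 array. Nothing here measures variation between cultures.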
